A study of Mus musculus with 2 samples.

Results

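Glycolysis and the transport of glucose and lactate were described in mouse heart through 33 genes, which cover 15 steps from glucose uptake to lactate transport. The genes were chosen by symbol as the members of these steps, 33 of 22015 nuclear protein-coding genes in the tables. Total RNA was sequenced from whole heart tissue of male B6CASTF1/J mice, the F1 cross of B6 and CAST, at 36 days of age, with no treatment in the labels. There was 1 group with 2 biological replicates, called hearts here, from 300 ng of RNA each with ERCC spike-in RNAs added. Both biosamples carry the same donor entry, so the spread between them may be that of 2 animals or partly technical.

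Glycolysis turns glucose into pyruvate in the cytosol. Glucose enters through transporters of the SLC2 family, is held in the cell by hexokinase, is committed by phosphofructokinase, and leaves the pathway as pyruvate or, after lactate dehydrogenase, as lactate, which crosses the membrane on monocarboxylate transporters. Most steps have several paralogs with different tissue distribution and kinetics. Heart muscle burns mainly fatty acids and also takes up lactate, and its glucose use rises with insulin and with work.

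Expected counts summed to 41846508 and 42481559 per library, and 0.487% and 0.470% of them fell on spike-ins. Levels between genes are compared in TPM, the length-corrected share of transcripts that falls on a gene, as replicate 1 and replicate 2. Cardiomyocyte markers, all 5 of 5 of which were abundant, summed to 17671 and 19438 TPM, and the liver markers to 0.85 and 1.01 TPM. Markers of fat and of red blood cells, and 1 macrophage marker, differed between the hearts. The 6 adipocyte markers summed to 61.7 and 4.31 TPM, led by Ucp1 of brown fat at 31.6 and 0.89 TPM. The 7 erythroid markers summed to 20329 and 9336 TPM. Of the macrophage markers, which summed to 53.8 and 53.6 TPM, Cx3cr1 alone was 2-fold apart, at 0.63 and 2.01 TPM. In whole tissue, fewer cells of a type and less RNA per cell cannot be told apart.

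Pyruvate kinase M is the member whose sequence shows how 1 gene codes for 2 enzymes. Pkm (chromosome 9, 59656368 to 59679375 on mm10, plus strand) carries alternative coding exons that exclude each other, and each takes the place of exon 9 of 11. The earlier one gives the M1 form of adult muscle and brain, and the later one the M2 form of proliferating cells. They are shown because the split of Pkm between them is reported below. Both are 167 bases long, 103 bases (61.7%) are the same, and capitals mark the 64 bases that differ.
Pkm-202 exon 9, the M1 exon, chr9:59675029-59675195, plus strand: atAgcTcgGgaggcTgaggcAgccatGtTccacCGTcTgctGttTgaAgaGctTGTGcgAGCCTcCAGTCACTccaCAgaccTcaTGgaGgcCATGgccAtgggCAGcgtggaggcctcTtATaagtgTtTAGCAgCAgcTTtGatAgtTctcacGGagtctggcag
Pkm-201 exon 9, the M2 exon, chr9:59675568-59675734, plus strand: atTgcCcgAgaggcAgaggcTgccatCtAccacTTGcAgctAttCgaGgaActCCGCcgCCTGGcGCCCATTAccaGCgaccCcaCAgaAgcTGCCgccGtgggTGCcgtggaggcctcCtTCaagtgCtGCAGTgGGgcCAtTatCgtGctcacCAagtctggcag

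Upstream sequence differed between paralogs of the same step. The 250 bases before the RefSeq start (GRCm38.p6) were searched on both strands for ACGTG, the core of the element bound by hypoxia-inducible factors, and for the palindrome CACGTG, an E-box, which contains ACGTG on both strands. For each member 1 region was used, at the RefSeq start nearest to the start of its main transcript. The main transcript is the one with the largest share of the gene's TPM. For Pfkfb4 the starts lay 25478 bases apart. Of 30 members with an entry, 13 (43.3%) held ACGTG, against 16.6% of all 32851 regions of this length, and 6 (20%) held CACGTG, against 6.02%. The comparison counted every region, without such a choice. Both motifs contain CG, and members had a median of 13 CG sites in these regions against 6 in all regions. GGGCGG, a GC box, was also more frequent, in 46.7% of members against 32.7% of all regions. What part CG content has in the motif shares was not tested. Ldha held the most matches, 5 of ACGTG, of which 4 lie in 2 copies of CACGTG, and Ldhb held none. Of the phosphofructokinase-2 genes that differed most between the hearts, Pfkfb3 held 1 copy of CACGTG and Pfkfb1 no match. The other genes of this step were nearly level between the hearts. Of these, Pfkfb2 also held 1 copy of CACGTG, at a log2 ratio of replicate 2 over replicate 1 of 0.002. Pfkfb4 held no match, at a log2 ratio of 0.06. The regions of Ldha, Ldhb, Pfkfb3 and Pfkfb1 are shown in lower case, read along the gene's own strand, with the matches in capitals. A match is a string of letters and no measured binding.
Ldha, chr7:46845554-46845803, plus strand: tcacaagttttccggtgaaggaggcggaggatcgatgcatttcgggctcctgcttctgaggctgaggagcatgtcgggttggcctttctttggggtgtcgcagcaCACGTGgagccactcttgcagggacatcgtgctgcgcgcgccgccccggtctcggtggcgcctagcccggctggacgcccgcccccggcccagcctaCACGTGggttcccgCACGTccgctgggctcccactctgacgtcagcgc
Ldhb, chr6:142507958-142508207, minus strand: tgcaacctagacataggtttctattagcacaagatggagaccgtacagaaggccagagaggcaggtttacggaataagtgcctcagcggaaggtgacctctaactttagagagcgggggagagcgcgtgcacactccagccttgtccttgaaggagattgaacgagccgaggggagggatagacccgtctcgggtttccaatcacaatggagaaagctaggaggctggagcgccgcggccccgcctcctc
Pfkfb3, chr2:11502091-11502340, minus strand: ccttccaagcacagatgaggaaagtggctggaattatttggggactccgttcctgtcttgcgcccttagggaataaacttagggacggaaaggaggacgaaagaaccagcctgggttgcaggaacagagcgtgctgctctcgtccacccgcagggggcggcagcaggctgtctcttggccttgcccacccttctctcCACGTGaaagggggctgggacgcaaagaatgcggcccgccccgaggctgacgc
Pfkfb1, chrX:150589666-150589915, plus strand: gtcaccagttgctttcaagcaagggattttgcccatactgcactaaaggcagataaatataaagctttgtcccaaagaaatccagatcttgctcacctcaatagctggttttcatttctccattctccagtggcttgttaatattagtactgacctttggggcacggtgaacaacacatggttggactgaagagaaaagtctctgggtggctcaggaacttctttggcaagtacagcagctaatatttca

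Most members were abundant, and 1 paralog held most of each step. At 1 TPM or more in both hearts there were 26 of 33 members, against 49.7% of nuclear protein-coding genes. At 100 TPM or more in both there were 13 members (39.4%), against 2.36% of nuclear protein-coding genes. The members together held 1.98% and 1.97% of nuclear protein-coding TPM. In the 10 steps with several members the same paralog was highest in both hearts, and it held between 72.7% (Hk2) and 99.98% (Aldoa) of the step's TPM, apart from Pkm, whose paralog Pklr had no count. The 7 members below 1 TPM in at least 1 heart were Slc2a3, Hk3, Pfkfb4, Aldoc, Eno2, Pklr and Slc16a3.

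**Figure D1:**
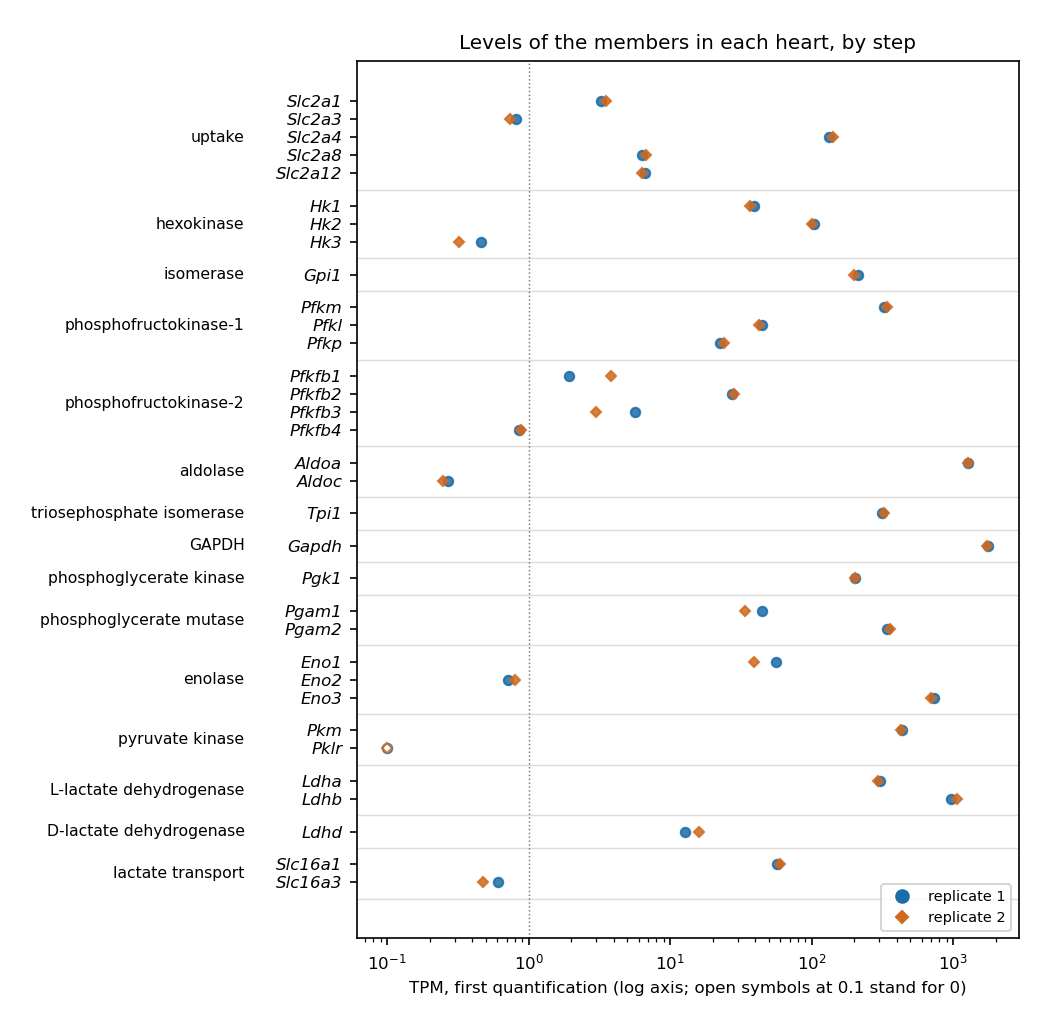
Level of each of the 33 members in TPM (log axis), grouped by step, with a circle for replicate 1 and a diamond for replicate 2, and the dotted line at 1 TPM. Gapdh and Aldoa are the highest, at 1762 and 1275 TPM on average, and Pklr lies at 0. The symbols of most members overlap, whereas those of Pfkfb1, Pfkfb3, Hk3, Eno1, Pgam1, Ldhd and Slc16a3 are farther apart.

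Among the glucose transporters the highest was Slc2a4, which codes for GLUT4, the insulin-responsive transporter of muscle and fat (chromosome 11, 69942539 to 69948188). Its level was 133.08 and 142.25 TPM, or 88.9% ± 0.314 (SD, n = 2) of the 5 transporters. Slc2a8 followed at 6.30 and 6.76 TPM and Slc2a12 at 6.63 and 6.32 TPM. Both code for transporters found largely on membranes inside the cell, and their order differed between the hearts, so they are not separated here. Slc2a1, the basal transporter GLUT1 found in most cells, stood at 3.23 and 3.52 TPM. Slc2a3, the high-affinity transporter GLUT3 of neurons, stood at 0.81 and 0.74 TPM.

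Hexokinase phosphorylates glucose and so holds it in the cell. Hk2, the insulin-responsive form of muscle (chromosome 6, 82725025 to 82774454), stood at 103.43 and 100.01 TPM, and Hk1, the form found in most tissues, at 39.01 and 36.80 TPM. Hk3, a form of white blood cells, stood at 0.46 and 0.32 TPM. Hk2 held 72.7% ± 0.390 (SD, n = 2) of the step, a lead over Hk1 of 2.65-fold and 2.72-fold. In TPM this was the narrowest lead of the 10 steps in both hearts, while by expected counts the share of Hk2, 74.2%, was above that of Ldhb in its step, 69.8%. The TPM of Hk2 includes Hk2-202, a noncoding transcript of 594 bases that held 28.08% and 25.94% of Hk2 TPM. Over protein-coding transcripts alone the share of Hk2 was 66.2%, and in the second quantification 65.9%.

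Gpi1, the glucose-6-phosphate isomerase, stood at 212.16 and 199.24 TPM. Phosphofructokinase-1, the committed step, was mostly Pfkm, the muscle form (chromosome 15, 98092589 to 98132451), at 325.77 and 341.10 TPM. Pfkl, the liver form, stood at 44.99 and 42.66 TPM and Pfkp, the platelet form, at 22.67 and 24.24 TPM. Pfkm held 83.2% ± 0.566 (SD, n = 2) of the step, and the order of the 3 genes was the same in both hearts.

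Phosphofructokinase-2 makes and breaks down fructose 2,6-bisphosphate, the activator of phosphofructokinase-1, and this step held the members that differed most between the hearts. Pfkfb2, the heart form (chromosome 1, 130689182 to 130729253), led at 27.23 and 28.17 TPM with 77.5% ± 1.46 (SD, n = 2) of the step. Pfkfb3, the inducible form with high kinase activity (chromosome 2, 11471433 to 11554077), stood at 5.61 and 2.99 TPM. Pfkfb1, the form of liver and skeletal muscle (chromosome X, 150588229 to 150643878), stood at 1.94 and 3.84 TPM. In TPM, Pfkfb3 was thus above Pfkfb1 in replicate 1 and below it in replicate 2. Pfkfb4, best known from testis, stood at 0.85 and 0.89 TPM. The sum of the 4 genes was 35.6 and 35.9 TPM, so the step's total was nearly the same. Pfkfb3 held 15.7% and 8.33% of it, and Pfkfb1 5.44% and 10.7%. By expected counts, which are not divided by length, Pfkfb3 was above Pfkfb1 in both hearts, at 18.8% and 9.69% against 2.81% and 5.95%.

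The aldolase and triose steps each came almost wholly from 1 gene and were nearly level between the hearts. Aldoa, the muscle aldolase (chromosome 7, 126795234 to 126800751), stood at 1268.06 and 1281.37 TPM, rank 25 among nuclear protein-coding genes. Aldoc, the brain form, was at 0.27 and 0.25 TPM. The annotation lists a second entry with the symbol Aldoa, which held 0 and 5 expected counts and was left apart. Tpi1, the triosephosphate isomerase, stood at 317.21 and 327.44 TPM, and Pgk1, the phosphoglycerate kinase that makes the first ATP of the payoff phase, at 202.86 and 201.46 TPM.

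Gapdh, which oxidises glyceraldehyde 3-phosphate and is often used as a reference gene (chromosome 6, 125161715 to 125166467), was the most abundant member at 1780.69 and 1743.39 TPM, rank 17. Its level depended on the quantification more than that of any other member. The second quantification, made from the reads without the alignments, gave 3830 and 3989 TPM, a mean 2.22 times that of the first. In the first, 72.88% and 73.80% of Gapdh TPM lay on Gapdh-208, a noncoding transcript of 483 bases, which held 0 in the second. The second put 52.3% and 54.9% on Gapdh-207, a coding transcript model of 471 bases, on which the first put 0.20% and 0.12%. What sets the quantifications apart was not tested.

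Phosphoglycerate mutase and enolase were led by muscle paralogs. Pgam2, the muscle mutase, stood at 339.13 and 357.66 TPM and Pgam1, the brain form found in most tissues, at 44.83 and 33.88 TPM. Pgam2 held 89.8% ± 2.14 (SD, n = 2) of the step by TPM and 79.7% by expected counts, which are not divided by length. Eno3, the muscle enolase (chromosome 11, 70657202 to 70662513), stood at 736.03 and 696.42 TPM and held 93.7% ± 1.22 (SD, n = 2). Eno1, the enolase of most tissues (chromosome 4, 150236721 to 150248879), stood at 55.83 and 39.07 TPM, and Eno2, the neuronal form, at 0.72 and 0.80 TPM. The lead of Eno3 over Eno1 was 13.2-fold and 17.8-fold, and that of Pgam2 over Pgam1 7.56-fold and 10.6-fold. In both steps the lead was wider in replicate 2, where the paralog of most tissues was lower.

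Pyruvate kinase came from Pkm alone, at 436.53 and 431.03 TPM. Pklr, the enzyme of liver and red blood cells, had 0 counts in both hearts of the first quantification, for an upper limit of 0.0717 and 0.0706 CPM (a gene's count relative to its library), and 1 and 0 counts in the second. The absence of Pklr counts stood beside the high erythroid sums given above. By TPM of the transcript models, both Pkm forms held near equal shares, and reads over the exons themselves were not counted here. Pkm-202, with the M1 exon shown above, held 51.0% and 51.7% of Pkm TPM, and Pkm-201, with the M2 exon, 47.8% and 47.0%. The second quantification gave the opposite order, 44.8% and 46.0% for the M1 exon against 48.9% and 48.5% for the M2 exon. The order of the forms is therefore not settled by these tables. Pkm-201 also has 205 more bases at its 5′ end and 186 more at its 3′ end than Pkm-202, so reads there can only be given to the M2 transcript, and what part they have in the split was not tested.

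Lactate dehydrogenase interconverts pyruvate and lactate. Ldhb, the heart subunit H (chromosome 6, 142490249 to 142507957), stood at 963.51 and 1063.15 TPM, and Ldha, the muscle subunit M (chromosome 7, 46841475 to 46855627), at 306.71 and 295.81 TPM. The lead of Ldhb was 3.14-fold and 3.59-fold. By expected counts the share of Ldhb was 69.8%, and in the second quantification 82.1%. The transcript models differed too. Ldhb-202, of 437 bases, held 20.09% and 21.19% of Ldhb TPM in the first quantification and 36.9% and 38.4% in the second. The full-length Ldhb-201 alone stood at 757.79 and 828.05 TPM, above the whole of Ldha in both hearts. Ldhd, the mitochondrial D-lactate dehydrogenase, stood at 12.69 and 16.10 TPM.

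Of the 2 monocarboxylate transporters among the members, the higher was Slc16a1, which codes for MCT1, the carrier of lactate uptake in oxidative muscle (chromosome 3, 104638668 to 104658462). It stood at 56.75 and 59.98 TPM and held 99.1% ± 0.191 (SD, n = 2) of the sum of both. Slc16a3, which codes for MCT4, the carrier of lactate export in glycolytic muscle, stood at 0.61 and 0.48 TPM. The lead of Slc16a1 over Slc16a3 was 93.0-fold and 125-fold. Slc16a7, a further lactate and pyruvate carrier that is not among the members, stood at 4.45 and 5.38 TPM, above Slc16a3 and below Slc16a1 in both hearts.

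**Figure D2:**
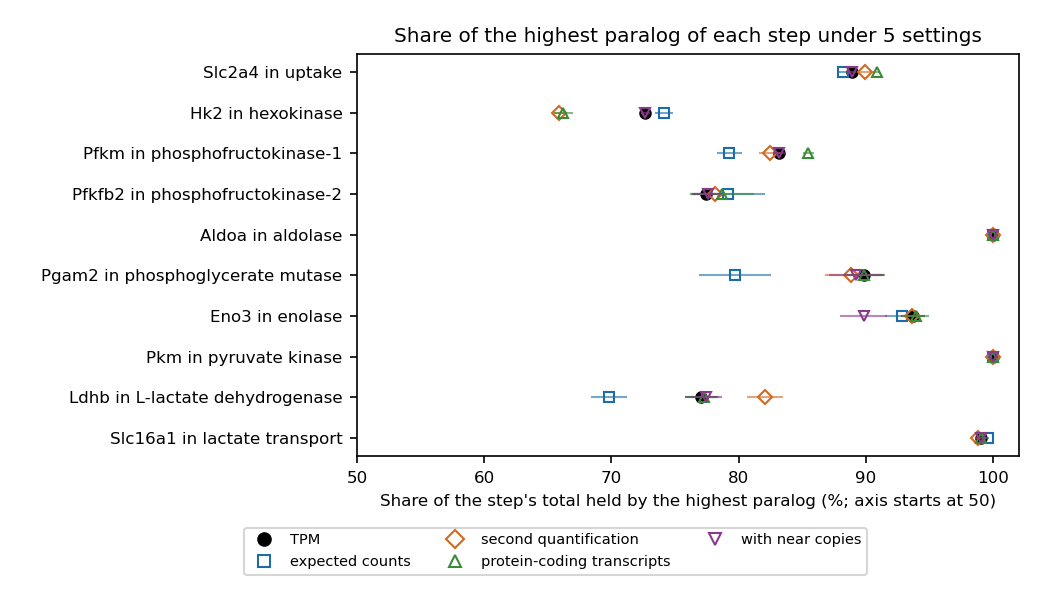
Share of each step's total (percent, axis from 50) held by its highest paralog, as the mean of the hearts with a line from one heart to the other, under 5 settings. Every share stays above 65%, and the widest ranges are those of Hk2, Pgam2 and Ldhb.

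Summed over paralogs, the levels of the steps differed widely. Glyceraldehyde 3-phosphate dehydrogenase (1762 ± 26.4 TPM, SD, n = 2), lactate dehydrogenase (1315 ± 62.7) and aldolase (1275 ± 9.40) were the highest. Enolase followed at 764 ± 39.8 TPM, then pyruvate kinase at 434 ± 3.89, phosphofructokinase-1 at 401 ± 10.3, phosphoglycerate mutase at 388 ± 5.36 and triosephosphate isomerase at 322 ± 7.23 TPM. Glucose-6-phosphate isomerase (206 ± 9.14 TPM) and phosphoglycerate kinase (202 ± 0.990 TPM) differed by less than the spread of the former. Uptake (155 ± 6.75 TPM) and hexokinase (140.0 ± 4.08 TPM) were lower, and lactate transport (58.9 ± 2.19), phosphofructokinase-2 (35.8 ± 0.184) and D-lactate dehydrogenase (14.4 ± 2.41) were the lowest. In TPM over all transcripts, glucose transport and phosphorylation and lactate transport thus had lower sums than each enzyme step of the main chain. This chain runs from Gpi1 to L-lactate dehydrogenase. Over protein-coding transcripts alone, Gpi1 stood at 145.85 and 132 TPM and Slc2a4 at 131.44 and 139.39, so uptake was above Gpi1 in replicate 2. Gapdh stood at 480.49 and 453.53 TPM there, below Eno3 at 735.32 and 696.07. In the second quantification Gapdh was at 3909 TPM, and phosphoglycerate mutase (478) was above phosphofructokinase-1 (474).

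Most members differed little between the hearts. The ratio of replicate 2 over replicate 1 was taken on TMM-scaled expected counts, and with 1 group and 2 hearts there is no test, since an exact sign permutation cannot go below p = 0.5. Of 28 members whose expected counts averaged at least 50, 1 (3.57%) was 2-fold or more apart, Pfkfb3. Of all 12541 genes at that count, 1.28% were. Past 1.5-fold were 3, or 10.7% (Pfkfb1, Pfkfb3 and Eno1), against 4.27% of all genes. With so few members, 1 gene moves these shares by 3.57 percentage points. The median log2 ratio was -0.01 over the members and 0.00 over all genes, and 13 members were higher in replicate 2 and 15 in replicate 1. An absolute log2 ratio under 0.2 was found in 23 of 28 members (82.1%), against 72.4% of all genes. Members and all genes were not matched by count level in these comparisons. Scaling by the spike-ins moved the median of the members to 0.06 and that of all genes to 0.07.

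Pfkfb3 held 607 and 301 expected counts. Its log2 ratio was -1.05, and the 95% interval from counting error ran from -1.26 to -0.86. Over protein-coding transcripts alone it stood at 4.62 and 1.80 TPM. Pfkfb1 held 91 and 185 counts, a log2 ratio of 0.97 with an interval of 0.61 to 1.36. The intervals do not overlap and lie on opposite sides of 0. Which of these genes passes the 2-fold line depends on the scaling. By spike-in totals Pfkfb3 was at -0.98 and Pfkfb1 at 1.04, and in the second quantification they were at -0.98 and 1.09. Fat and red blood cell markers were higher in replicate 1 as well, as given above. Cx3cr1 was higher in replicate 2, while the macrophage marker sum was level. Their part in the Pfkfb3 and Pfkfb1 differences was not tested.

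Eno1 held 2820 and 1800 expected counts, a log2 ratio of -0.69 with an interval of -0.78 to -0.61. Pgam1 was at 2529 and 1907 counts, a log2 ratio of -0.45 with an interval of -0.54 to -0.37. Their muscle paralogs were nearly level, Eno3 at -0.12 and Pgam2 at 0.04. Ldhd, at 0.29 with an interval of 0.17 to 0.41, was the other member past 0.2. The adipocyte and erythroid sums were also higher in replicate 1, and their part in the Eno1 and Pgam1 differences was not tested.

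**Figure D3:**
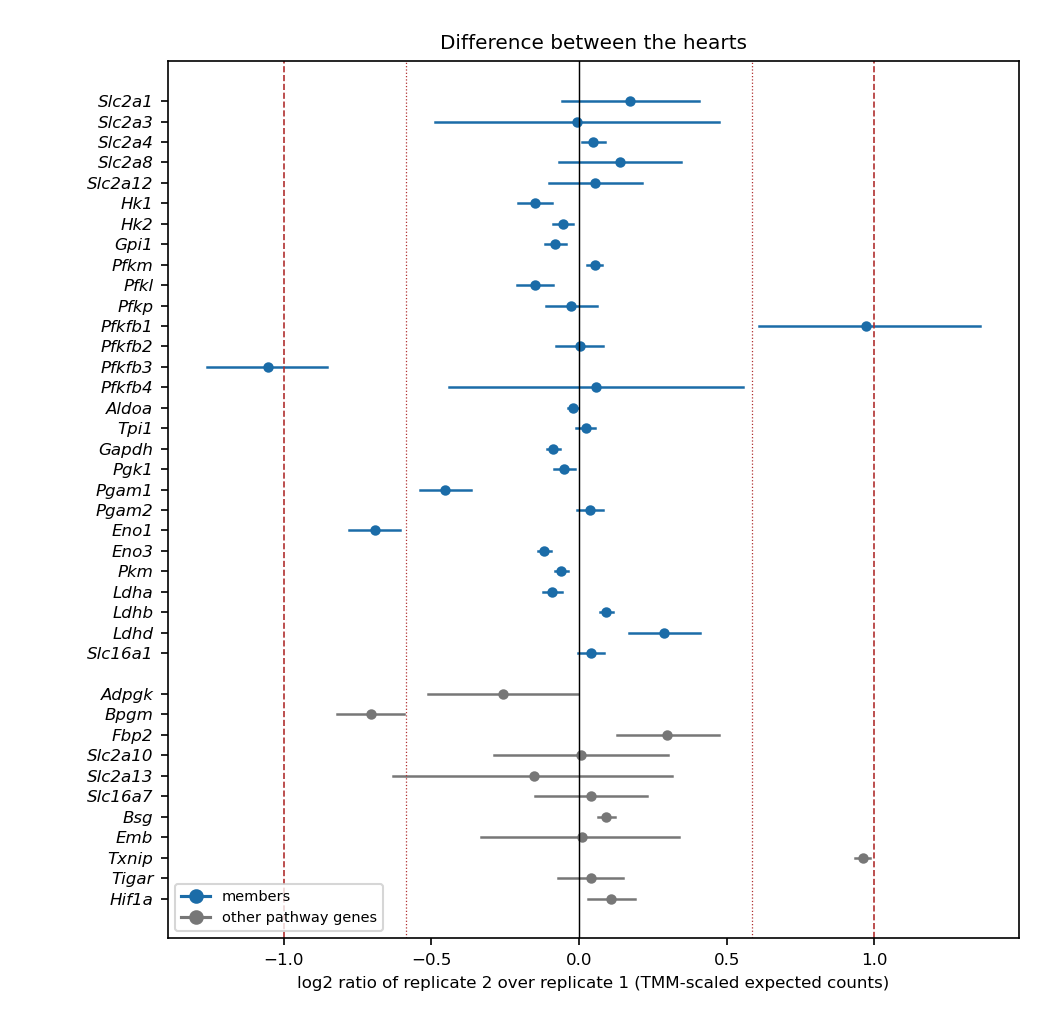
Log2 ratio of replicate 2 over replicate 1 on TMM-scaled expected counts for the 28 members (blue) and the 11 other pathway genes (grey) whose expected counts averaged at least 50, with 95% counting intervals, dashed lines at 2-fold and dotted lines at 1.5-fold. Pfkfb3 at -1.05 and Pfkfb1 at 0.97 lie farthest out among the members, and Txnip at 0.96 among the other genes.

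Reads can be shared between a gene and near copies of its sequence, such as processed pseudogenes. A near copy was a gene with a transcript at least 90% identical to at least 50% of the member's longest coding sequence. Such copies were found for 11 of 33 members, 197 in all, of which 160 belong to Gapdh. The 1 copy of Pfkfb2, Gm29427, is a gene annotated as protein-coding that overlaps the Pfkfb2 locus, and it held 0.445% and 0.376% of their joint counts. Over 5% of the joint counts of the first quantification lay on copies for 3 members, Eno1, Gapdh and Pgk1.

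Eno1 had the largest share on copies, 43.5% and 40.7% of the joint counts. Eno1b, a gene annotated as protein-coding, held 1552 and 959 expected counts, and the processed pseudogene Gm4735 held 617 and 275. Over the 1302 coding bases of Eno1, Eno1b differs at 8 and Gm4735 at 5. How many reads cover a differing base was not tested. The joint count of Eno1 and its 6 copies was 4989 and 3036, a log2 ratio of -0.76 with an interval of -0.83 to -0.70. The difference between the hearts was thus present in the sum, and the level of Eno1 itself is uncertain.

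Jointly, Gapdh and its copies held 39182 and 38352 expected counts by the first quantification and 86198 and 83990 in the second, 2.20 and 2.19 times as many. Counts of Gapdh alone were 1.74 and 1.73 times as high in the second, so the gap between the quantifications was wider in the sum. The copies held 8.53% and 9.24% in the first and 27.6% and 28.2% in the second. These sums include Peli2, a separate protein-coding gene, whose 753 and 720 expected counts are part of the 3343 and 3543 on copies in the first. The processed pseudogene Gm7336, whose transcript is identical to 94.4% of the Gapdh coding sequence, stood at 25.2 and 21.5 TPM in the first and 684 and 679.6 TPM in the second.

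Pgk1 showed the reverse. Its copy Gm5537, a processed pseudogene with 100% identity over the coding sequence, held 629.6 and 652 counts when placed from alignments and 0 in the second quantification. Pgam1-ps2, identical to the coding sequence of Pgam1, held 111 and 15.4 counts. Joined with its 3 copies, Pgam1 was at 2640 and 1922 counts, a log2 ratio of -0.50 with an interval of -0.59 to -0.42. With copies added, the highest paralog of every step was the same as without them, and the largest move in a share was that of Eno3, from 93.7% to 89.8%.

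**Figure D4:**
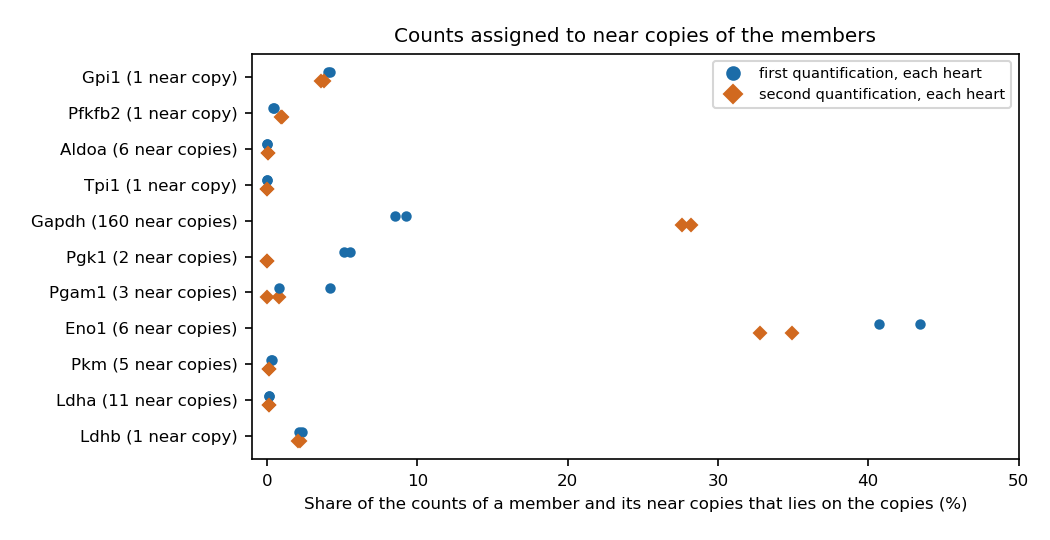
Share of the joint counts of a member and its near copies that lies on the copies (percent), for the 11 members with near copies, in each heart for the first quantification (circles) and the second (diamonds). Eno1 lies above 30% in both, Gapdh rises from about 9% to 28%, and Pgk1 falls from about 5% to 0.

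Transcript models were assigned alike in both hearts but less so between the quantifications. Among 26 members with a mean of 1 TPM or more, the transcript with the largest share of TPM was the same in both hearts for 25. The exception was Pfkm, with Pfkm-201 at 39.48% and 37.79% and Pfkm-205 at 37.63% and 41.03%. The main transcript was the same in both hearts and both quantifications for 19, and the others were Hk1, Pfkm, Gapdh, Eno3, Pkm, Ldha and Ldhb. For Ldha, the first quantification put 97.47% and 98.50% on Ldha-202, and the second 25.7% and 31.9%. For Eno3, it was 53.34% and 54.73% on Eno3-201 against 20.0% and 17.9%. Pgam2 and Slc16a1 have 1 transcript model each and cannot vary in this way.

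**Figure D5:**
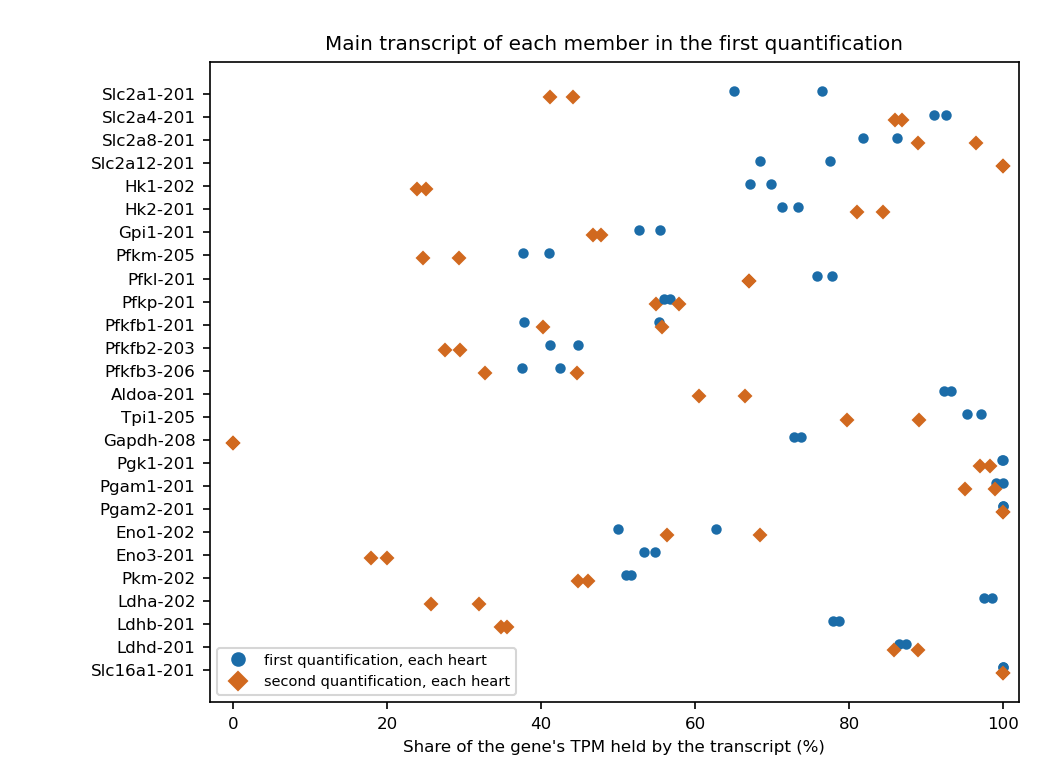
Share of a member's TPM (percent) held by its main transcript of the first quantification, in each heart for the first (circles) and second quantification (diamonds), for 26 members with a mean of 1 TPM or more. For most members the hearts lie closer together than the quantifications, and Gapdh-208, Ldha-202, Ldhb-201 and Hk1-202 are far lower in the second quantification.

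Of 23 other genes of the pathway, 10 were at 1 TPM or more in both hearts, and 6 had no count in the first quantification, Hkdc1, Gapdhs, Pgk2, Eno4, Ldhc and Fbp1. Bsg, the chaperone that carries MCT1 to the membrane, stood at 468.30 and 512.52 TPM, and Emb, a related chaperone, at 3.51 and 4.25 TPM. Txnip, an arrestin-like protein that lowers glucose uptake, was the next highest at 217.98 and 427.60 TPM. Hif1a, the hypoxia-inducible factor, stood at 17.18 and 19.58 TPM and Tigar, a fructose-2,6-bisphosphatase, at 15.97 and 18.00 TPM. Fbp2, the muscle fructose-1,6-bisphosphatase, was at 11.67 and 14.76 TPM. Slc16a7 was at the level given above, the ADP-dependent kinase Adpgk at 3.17 and 2.70 TPM, and the transporter Slc2a10 at 1.66 and 2.13 TPM.

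Of the 11 such genes whose expected counts averaged at least 50, 0 were 2-fold apart and 2 were past 1.5-fold, against 1.28% and 4.27% of all genes. Txnip held 18270 and 36680 counts, a log2 ratio of 0.96 with an interval of 0.93 to 0.99, and of 1.03 when scaled by the spike-ins. Cx3cr1 was higher in the same heart, while the sum of the 5 macrophage markers was level at 53.83 and 53.55 TPM. The part of macrophages in the Txnip difference was not tested. Bpgm, which makes the 2,3-bisphosphoglycerate of red blood cells, stood at 30.57 and 20.19 TPM, a log2 ratio of -0.71. The erythroid marker sum was also higher in replicate 1, and its part in the Bpgm difference was not tested.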

How the data were processed

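The authors deposited a first quantification with expected counts, TPM, and for each transcript the percent it makes up of its gene's TPM. Per the sample notes, its input was transcriptome alignments (mm10, GENCODE M21). The authors also deposited a second one, with estimated counts and TPM per transcript, made from the reads and an index, which was summed per gene here. The sources used here do not name the tools.

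Symbols were joined to gene identifiers, and positions are on mm10, counted from 1. Printed sequences, identities to near copies and motif matches are those of the reference, and the alleles of the CAST parent were not examined. Counts were scaled with TMM factors from edgeR 4.0.16 (R 4.3.3), without spike-ins, and log2 ratios used a prior count of 1. Intervals are exact Clopper-Pearson at 95% on rounded expected counts and cover counting error only. They leave out the spread between animals and errors in assigning reads to genes. They may be too narrow even for counting error, since several reads may stem from 1 molecule. The limit for a count of 0 is 3 counts. Apart means 2-fold or more where expected counts averaged at least 50, a rule of size and no test. The ratio script was tested on simulated data. Near copies were found with BLAST 2.17.0.

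The members, the other pathway genes and the marker lists were chosen with earlier results of these data known. Named are all members, other pathway genes at 1 TPM or more in both hearts, and for each member with copies the copy of highest TPM where its counts bear on a result. The result for 1 gene of the other pathway genes is not reported here. Gm4735, the genes without a count and the transcripts were chosen after their values were seen. RefSeq upstream sequence was found for 30 members. Alternatives covered detection thresholds, units, scalings (DESeq2 1.42.0 size factors, library totals, spike-ins), count filters, the second quantification, coding transcripts, near copies and each heart alone.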

Additional observations from a re-analysis of the deposited data

How the results depend on the processing

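The highest paralog was the same in all 10 steps under expected counts, the second quantification, protein-coding transcripts, added near copies and in either heart alone. Members at 1 TPM or more numbered 29 at a threshold of 0.5 TPM, 23 at 5 TPM, 28 in the second quantification and 26 in either heart alone. Members 2-fold apart numbered 1 under each scaling, prior and count filter tried, but by spike-ins and in the second quantification the gene was Pfkfb1 and not Pfkfb3. At 1.5-fold there were 3. Of 160 member ratios under alternatives, 156 stayed on the same side of the 2-fold line, and 11 changed sign, all with a log2 size of 0.06 or less in the main scaling. Of 60 share values, 19 moved by more than 1 SD of the hearts. The 60 include each heart alone, which with n = 2 cannot lie more than 1 SD from the mean. All 19 thus came from the other settings. The cause of these moves was not tested. No paired analysis was possible because there is only 1 group. Depth limits Hk3, Aldoc, Eno2, Pklr and Slc16a3, each with a mean expected count under 50.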

Other observations

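The upstream regions of the paralogs also differed in CG sites, the base pairs at which DNA is methylated. Over 250 bases, the median was 13 CG sites in 30 members and 6 in all 32851 regions. The muscle paralogs Pgam2, Pfkm and Eno3, each the highest of its step, had 1, 2 and 3 CG sites, against 22 for Pgam1, 13 for Pfkl, 16 for Pfkp and 9 each for Eno1 and Eno2. The Pfkm region is that of the transcript Pfkm-205, which held 37.63% and 41.03% of Pfkm TPM and was not the main transcript in replicate 1 or in the second quantification. Other leading paralogs did not share this: Hk2 had 25 against 14 for Hk1, Aldoa 21 against 3 for Aldoc, and Slc16a1 37 against 29 for Slc16a3. In phosphofructokinase-2 the leading Pfkfb2 had 11, against 1 for Pfkfb1, 14 for Pfkfb3 and 11 for Pfkfb4. Pkm had 21, and Pklr had no region. In lactate dehydrogenase the higher paralog Ldhb had 14 and Ldha 25. The regions of Eno3, Hk1, Ldha and Ldhb also belong to transcripts that were not the main ones in the second quantification. The Slc16a3 region belongs to a start 587 bases from that of Slc16a3-201, which held 18.61% and 69.56% of Slc16a3 TPM. The Pfkfb4 region belongs to a start 25478 bases from that of Pfkfb4-205. Slc2a4, the highest of uptake, had no region. These counts describe sequence, and methylation was not measured.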
